A study of Mus musculus with 6 samples.

Results

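The genes described here are SUV39H1 and the machinery that writes and reads methylation of H3K9, a lysine in the tail of histone H3. They were chosen by name from the deposited table, by the rule that a row's symbol equals one of 10 gene symbols, and each of the 10 symbols had exactly 1 row among the 20323 gene rows. Of these, 6 are methyltransferases (SUV39H1, SUV39H2, SETDB1, SETDB2, EHMT1 and EHMT2), 3 encode the HP1 proteins that bind the mark (CBX1, CBX3 and CBX5), and TRIM28 encodes a corepressor that brings a methyltransferase to its targets. All 10 passed the filter on low counts.

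RNA-seq was done on 6 libraries of RFB cells, labelled as a fibroblast line of the kidney. In 3 libraries the cells had received the fibrotic cytokine TGF-β together with the chemokine CXCL10 (the titles give a volume of 5 µl, without a concentration), and in 3 they had received TGF-β alone, so both groups share the TGF-β treatment and no untreated group was analysed here. The labels call the organism mouse, while all 20323 rows carry human Ensembl identifiers, so every level below belongs to a human gene model. The series title and design text name SUV39H1, and the design text a knockdown of it, yet no library is labelled as a knockdown. The treatment labels of the groups compared differ only in CXCL10, and the titles call the TGF-β libraries NC.

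Methylated H3K9 is a hallmark of silent chromatin. The SUV39 enzymes place the trimethyl mark at heterochromatin around centromeres, SETDB1 places it at silenced genes and retroelements, and the EHMT1 and EHMT2 proteins (GLP and G9a) work as a complex that adds the first methyl groups in euchromatin. HP1 proteins dock on the mark through a chromodomain and help it spread, and TRIM28 links SETDB1 and HP1 to zinc finger repressors. In fibroblasts this system is studied because it can hold genes of the fibrotic and inflammatory response in a silent state.

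Libraries held 12838106 to 15587409 counts. Fibroblast markers were high: summed over 10 fibroblast genes, the CXCL10 libraries held 50169 to 54454 CPM (counts relative to library size, scaled by TMM) and the TGF-β libraries 52430 to 59819 CPM. Most of it came from COL1A1, at a mean of 34051 CPM over the 6 libraries, while S100A4 was the lowest of these markers at 24.5 CPM. Markers of tubular epithelium summed to 19.1 to 20.5 CPM with CXCL10 and 20.9 to 22.3 CPM with TGF-β alone, with CDH16 and LRP2 at 0 counts throughout. Most of that sum came from AQP1 (mean 11.4 CPM with CXCL10, 12.8 CPM with TGF-β alone) and PAX8 (7.66 CPM with CXCL10, 6.1 CPM with TGF-β alone). CDH1 was low in every library and lower in the paired fit, at 0.211, 0.474 and 1.42 CPM with CXCL10 and 1.55, 1.99 and 3.68 CPM with TGF-β alone (log2 change -1.89, adjusted p = 0.00898; 0.0420 unpaired without TGF-β replicate 1; chosen after its values were seen). Endothelial markers summed to 3.02 to 3.15 CPM with CXCL10 and 2.55 to 3.17 CPM with TGF-β alone. Leukocyte markers summed to 38.1 to 44.7 CPM with CXCL10 and 36.4 to 42.1 CPM with TGF-β alone, nearly all of it from CD68, with CD3E at 0 counts. The part of other cell types in the results was not tested. Nothing in the labels says that the libraries of a group came from separate cultures, so p-values measure the spread between these libraries, which may be technical. Replicate 1 stood apart from the other libraries of its group in both treatments. On the first principal component (48.4% of the variance) the CXCL10 libraries scored 32.8, 9.78 and 9.67, and the TGF-β libraries 5.54, -28.3 and -29.5. Among the TGF-β libraries replicate 1 lay nearest the CXCL10 group, so leaving it out tends to widen the gap between the groups. Unpaired values without TGF-β replicate 1 are given beside the called genes and are no separate support for them. Without any other single library, the unpaired edgeR test called 0 genes in either direction.

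With CXCL10, transcripts of SUV39H2, SETDB2, EHMT2 and CBX5 were lower and those of TRIM28 higher, once same-numbered libraries were paired in the edgeR fit. SUV39H1 itself passed no test. The largest difference was that of SUV39H2, which averaged 2.62 ± 0.264 CPM with CXCL10 and 4.99 ± 1.15 CPM with TGF-β alone (SD, n = 3 each). In each of the paralog pairs SUV39H1 and SUV39H2, SETDB1 and SETDB2, and EHMT1 and EHMT2, the gene numbered 2 fell in the paired fit and its partner was not called. A call for a gene and none for its partner is no test of a difference between them.

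These calls depend on the pairing, which the labels do not state, and the 4 lower ones also on the tool. By edgeR's quasi-likelihood test without pairing, 0 of the 10 genes and 0 of all 11970 genes tested passed an adjusted p of 0.05, a background of 0% in either direction, although 5 of the 10 genes and 2449 of all tested genes had an unadjusted p under 0.05. DESeq2 without pairing also called 0 of the 10 genes, against 158 higher and 156 lower among all genes. With pairing, DESeq2 called 1 of the 10 genes higher and 0 lower, against 686 higher and 455 lower among all genes. Its paired adjusted p was 0.103 for SUV39H2, 0.0785 for SETDB2, 0.123 for EHMT2 and 0.0693 for CBX5. With the pairing, edgeR called 1 of the 10 genes higher, where 9.71% of all tested genes were called higher, and 4 of the 10 lower, where 8.04% of all were called lower. Scaled by library totals in place of TMM, the paired split over all genes turned from more higher calls (1162 higher, 962 lower) to more lower ones (877 higher, 1359 lower), and the counts among the 10 genes were again 1 higher and 4 lower. The median log2 change of the 10 genes was -0.06 in both fits, and that of all tested genes -0.01. Groups that do not overlap in CPM were found for 2 of the 10 genes with CXCL10 higher (11.1% of all tested genes) and for 3 with CXCL10 lower (11.2%).

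**Figure D1:**
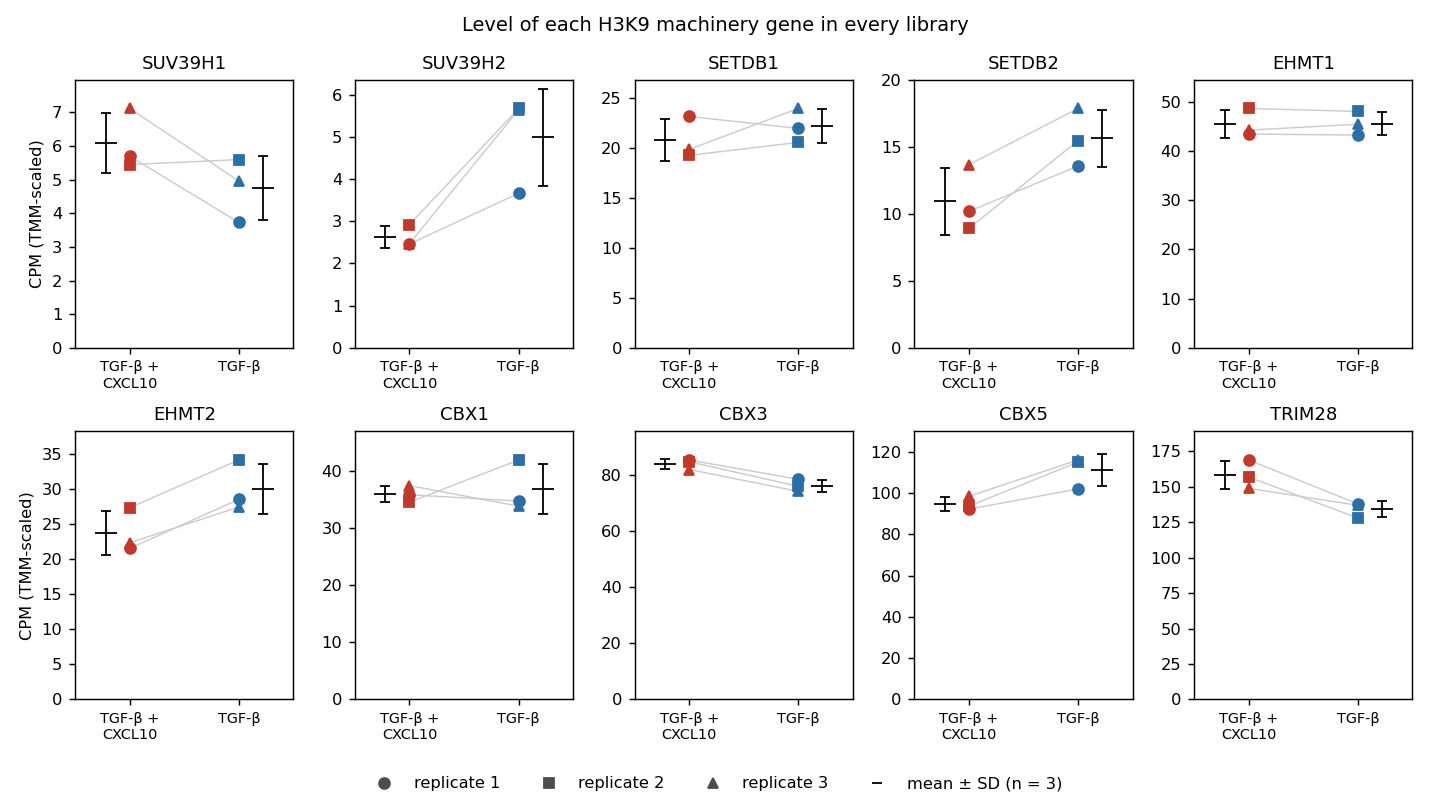
CPM of each of the 10 genes (y axis, from 0) in every library, with the TGF-β + CXCL10 group at left and the TGF-β group at right. Points are libraries, grey lines join libraries of the same replicate number, and bars give the mean ± SD (n = 3). SUV39H2, at 2.46 to 2.92 CPM with CXCL10 and 3.66 to 5.67 CPM with TGF-β alone, shows the widest relative gap.

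SUV39H1 (ENSG00000101945), the enzyme named in the study's title, had 5.70, 5.45 and 7.12 CPM in CXCL10 replicates 1 to 3, and 3.73, 5.60 and 4.96 CPM in TGF-β replicates 1 to 3. The groups overlapped, since TGF-β replicate 2 lay above CXCL10 replicate 2. The means were 6.09 ± 0.901 CPM with CXCL10 and 4.77 ± 0.951 CPM with TGF-β alone (SD, n = 3 each), with a log2 difference of 0.35 without pairing (SE 0.22, adjusted p = 0.380) and 0.36 with it (SE 0.21, adjusted p = 0.283). Same-numbered libraries differed by 0.59, -0.04 and 0.51 on the log2 scale. These levels rest on 81, 69 and 95 counts with CXCL10 and 53, 90 and 66 counts with TGF-β alone. The exact 95% Poisson interval of a library, which covers counting error only, ran for example from 5.76 to 8.70 CPM in CXCL10 replicate 3 and from 2.80 to 4.88 CPM in TGF-β replicate 1, the highest and lowest libraries. Under 18 other ways of processing the log2 difference stayed between 0.20 and 0.56, and its adjusted p between 0.214 and 0.646.

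SUV39H2 (ENSG00000152455), the paralog that also writes the trimethyl mark and is best known from germ cells and embryonic tissue in the mouse, moved the other way. It had 2.46, 2.92 and 2.47 CPM in CXCL10 replicates 1 to 3, and 3.66, 5.67 and 5.64 CPM in TGF-β replicates 1 to 3. Every CXCL10 library lay below every TGF-β library, and TGF-β replicate 1 was the TGF-β library nearest to the CXCL10 group. The log2 change was -0.91 in the paired fit (SE 0.25, adjusted p = 0.0237) and -0.93 without pairing (SE 0.25, adjusted p = 0.161). Same-numbered libraries differed by -0.55, -0.92 and -1.14. Counts were low, at 35, 37 and 33 with CXCL10 and 52, 91 and 75 with TGF-β alone, and the exact 95% Poisson intervals of the nearest libraries overlapped (2.06 to 4.03 CPM in CXCL10 replicate 2, 2.74 to 4.80 CPM in TGF-β replicate 1). Without TGF-β replicate 1 the unpaired change was -1.11 (adjusted p = 0.0114). The paired call was lost without both libraries of replicate 2 (adjusted p = 0.103) or of replicate 3 (0.177).

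Since both genes serve the same mark, their balance was set side by side per length, from the authors' FPKM (fragments relative to transcript length and library size). SUV39H1 made up 61.0%, 64.8% and 71.0% of the summed FPKM of the SUV39 pair in CXCL10 replicates 1 to 3, and 39.0%, 45.1% and 34.5% in TGF-β replicates 1 to 3. On this scale SUV39H1 made up the larger part of the pair in each CXCL10 library and the smaller part in each TGF-β library. The share averaged 65.6% ± 5.02 with CXCL10 and 39.5% ± 5.35 with TGF-β alone (SD, n = 3 each), a difference of 26.1 percentage points. The two-sided exact permutation test gave p = 0.1, the smallest that 3 libraries against 3 allow, and 0.4 after adjustment over 4 shares. Taken from counts, with no regard to length, the SUV39H1 share was 69.8%, 65.1% and 74.2% with CXCL10 and 50.5%, 49.7% and 46.8% with TGF-β alone, a difference of 20.7 points. By counts the pair was thus nearly even with TGF-β alone, and the length that FPKM implies for SUV39H2 varied between libraries, as described below for TRIM28.

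SETDB2 (ENSG00000136169), a less studied member of the SETDB family, had 10.2, 8.93 and 13.7 CPM in CXCL10 replicates 1 to 3, and 13.6, 15.5 and 17.9 CPM in TGF-β replicates 1 to 3. The groups met at CXCL10 replicate 3 and TGF-β replicate 1, which had nearly the same level, and within each replicate number the CXCL10 library was lower. Its paired log2 change was -0.52 (SE 0.13, adjusted p = 0.0137), against an unpaired adjusted p of 0.176. Without TGF-β replicate 1 the unpaired change was -0.60 (adjusted p = 0.0356), and without both libraries of replicate 2 the paired call was lost (adjusted p = 0.117). SETDB1 (ENSG00000143379), the TRIM28 partner, had 23.2, 19.3 and 19.9 CPM with CXCL10 and 22.0, 20.6 and 24.0 CPM with TGF-β alone. These groups overlapped widely, and the paired log2 difference was -0.09 (SE 0.10, adjusted p = 0.589). On the FPKM scale the difference had the opposite sign, at 0.06 on log2(FPKM + 1) (paired SE 0.12, adjusted p = 0.813 by limma-trend).

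EHMT2 (ENSG00000204371), which encodes G9a, had 21.5, 27.3 and 22.3 CPM in CXCL10 replicates 1 to 3, and 28.5, 34.1 and 27.4 CPM in TGF-β replicates 1 to 3. The groups only just cleared each other, at CXCL10 replicate 2 and TGF-β replicate 3, and in both groups replicate 2 was the highest library. Same-numbered libraries differed by -0.40, -0.32 and -0.29, and the paired log2 change was -0.34 (SE 0.09, adjusted p = 0.0183), against an unpaired adjusted p of 0.189. The unpaired test also missed the threshold without TGF-β replicate 1 (adjusted p = 0.0706), and the paired call was lost without both libraries of replicate 2 (0.0812) or of replicate 3 (0.0754). EHMT1 (ENSG00000181090), which encodes GLP, had 43.4, 48.6 and 44.2 CPM with CXCL10 and 43.2, 48.0 and 45.4 CPM with TGF-β alone. The ranges of the groups were nearly the same (paired log2 difference -0.0041, SE 0.07, adjusted p = 0.981).

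**Figure D2:**
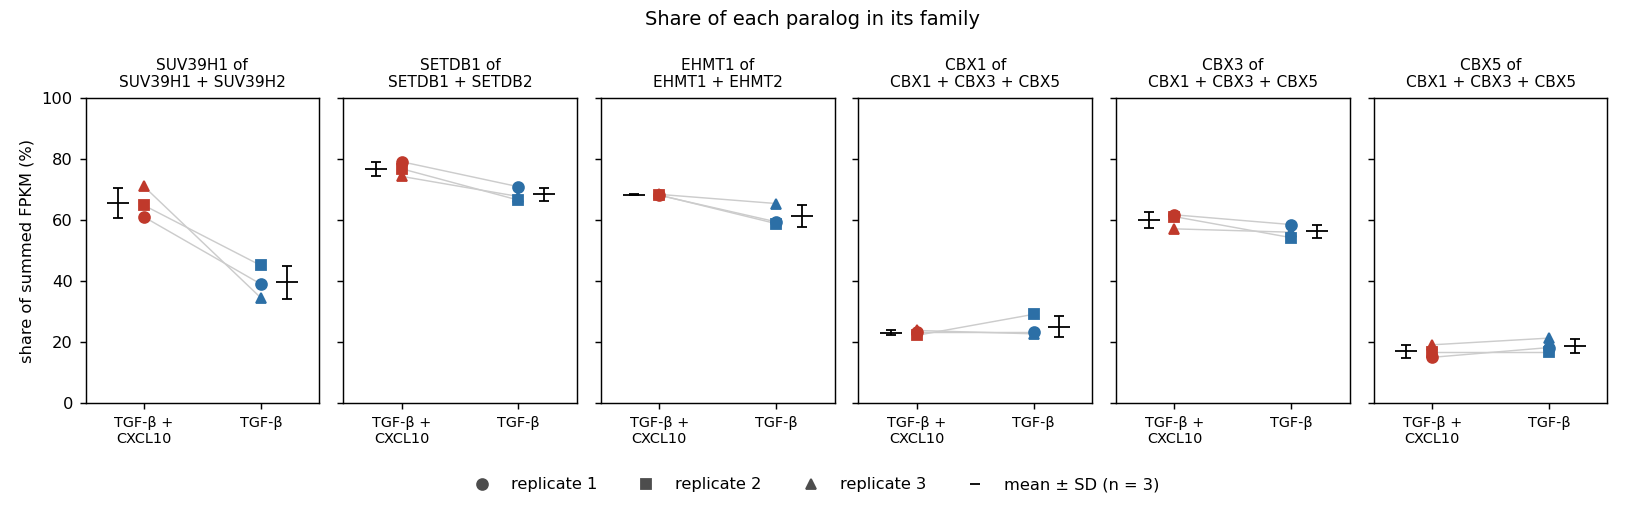
Share of each paralog in the summed FPKM of its family (y axis, percent, 0 to 100) in every library, TGF-β + CXCL10 at left and TGF-β at right in each panel, with the mean ± SD (n = 3). The SUV39H1 share differs most, at 61.0% to 71.0% with CXCL10 and 34.5% to 45.1% with TGF-β alone, while the 3 HP1 shares lie close together in both groups.

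The shares of the other methyltransferase pairs were computed after the SUV39 result had been seen and are given without a test. EHMT1 made up 68.1%, 68.2% and 68.4% of the pair's FPKM in CXCL10 replicates 1 to 3, and 59.4%, 58.8% and 65.4% in TGF-β replicates 1 to 3. SETDB1 made up 79.1%, 76.8% and 74.3% of its pair with CXCL10 and 70.9%, 66.5% and 67.7% with TGF-β alone. Neither pair overlapped between the groups on this scale. By counts the EHMT1 shares stayed apart, at 64.0% to 66.8% with CXCL10 and 58.5% to 62.4% with TGF-β alone, while the SETDB1 shares overlapped, at 59.2% to 69.5% with CXCL10 and 57.1% to 61.9% with TGF-β alone. Summed over the 6 methyltransferases, FPKM was 29.3 ± 1.31 with CXCL10 and 32.3 ± 3.22 with TGF-β alone (SD, n = 3 each), a difference within the spread of the TGF-β group. In CPM, which weights long transcripts more, the sum was 106, 113 and 110 in CXCL10 replicates 1 to 3 and 115, 129 and 125 in TGF-β replicates 1 to 3, without overlap and with no test of the sum.

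Among the readers of the mark, CBX5 (ENSG00000094916), which encodes HP1α, was lower with CXCL10. It had 92.2, 93.6 and 98.4 CPM in CXCL10 replicates 1 to 3, and 102, 115 and 116 CPM in TGF-β replicates 1 to 3. The groups did not overlap, and TGF-β replicate 1 lay between the CXCL10 group and its own. The paired log2 change was -0.23 (SE 0.06, adjusted p = 0.0133), and the unpaired one -0.23 as well (SE 0.07, adjusted p = 0.161). Without TGF-β replicate 1 the unpaired change was -0.28 (adjusted p = 0.0131), and the paired call was lost without both libraries of replicate 2 (adjusted p = 0.130) or 3 (0.111). On log2(FPKM + 1) the paired difference of CBX5 was -0.13 (SE 0.09, adjusted p = 0.418).

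CBX3 (ENSG00000122565), which encodes HP1γ, had 85.4, 84.8 and 82.0 CPM with CXCL10 and 78.5, 76.0 and 74.2 CPM with TGF-β alone. Its groups did not overlap and the differences of same-numbered libraries were alike, at 0.12, 0.16 and 0.14, yet the test did not pass (paired log2 difference 0.14, SE 0.06, adjusted p = 0.113). CBX1 (ENSG00000108468), which encodes HP1β, had 35.9, 34.6 and 37.5 CPM with CXCL10 and 34.8, 42.0 and 33.9 CPM with TGF-β alone. Here TGF-β replicate 2 was the high library, and the paired log2 difference was -0.03 (SE 0.09, adjusted p = 0.871).

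The sum of the 3 HP1 genes was nearly level between the groups, at 70.2 ± 0.931 FPKM with CXCL10 and 70.0 ± 2.70 FPKM with TGF-β alone (SD, n = 3 each). Within that sum CBX3 made up 60.0% ± 2.47 with CXCL10 and 56.2% ± 2.18 with TGF-β alone, and CBX5 16.9% ± 2.05 with CXCL10 and 18.7% ± 2.38 with TGF-β alone. The exact permutation test gave p = 0.2 for the CBX3 share and p = 0.5 for the CBX5 share (adjusted over 4 shares, 0.4 and 0.5). CBX1 made up 23.1% ± 0.773 with CXCL10 and 25.1% ± 3.55 with TGF-β alone (exact permutation p = 0.5). By counts the CBX3 share was 5.06 points higher and the CBX5 share 5.38 points lower with CXCL10, each without overlap between the groups.

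TRIM28 (ENSG00000130726), also known as KAP1, was the only one of the 10 genes called higher in the paired fit. It had 169, 157 and 149 CPM in CXCL10 replicates 1 to 3, and 138, 128 and 137 CPM in TGF-β replicates 1 to 3. Every CXCL10 library lay above every TGF-β library, and here TGF-β replicate 1 was close to TGF-β replicate 3. The paired log2 change was 0.24 (SE 0.05, adjusted p = 0.00826), against an unpaired adjusted p of 0.161. Without TGF-β replicate 1 the unpaired change was 0.26 (adjusted p = 0.0284). The paired call was lost only without both libraries of replicate 2 among these leave-outs (adjusted p = 0.0759). TRIM28 was also the only one of the 10 that DESeq2 called with pairing (adjusted p = 0.0225).

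The rise of TRIM28 was seen in counts and not in FPKM. Its FPKM was 65.6, 53.1 and 56.6 in CXCL10 replicates 1 to 3, and 62.2, 58.7 and 49.8 in TGF-β replicates 1 to 3. These ranges overlapped widely, and the paired difference on log2(FPKM + 1) was 0.04 (SE 0.07, adjusted p = 0.794). The length that the authors' FPKM implies for a gene was not the same in every library. For TRIM28 the ratio of CPM to FPKM was 2.58, 2.96 and 2.63 with CXCL10 and 2.22, 2.19 and 2.75 with TGF-β alone, so that the highest value was 1.35 times the lowest.

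The same ratio varied by 1.69 times for SUV39H2, 1.32 times for SETDB1, 1.31 times for CBX5 and 1.23 times for EHMT1, and by 1.05 to 1.13 times for SUV39H1, SETDB2, EHMT2, CBX1 and CBX3. For SUV39H2 it was 1.88, 2.74 and 2.36 in CXCL10 replicates 1 to 3 and 1.72, 2.21 and 1.62 in TGF-β replicates 1 to 3, so the groups overlapped. It averaged 2.33 with CXCL10 and 1.85 with TGF-β alone. The fall of SUV39H2 was larger in FPKM: the log2 ratio of group means was -1.26 in FPKM and -0.93 in CPM. SUV39H2 was the only one of the 10 genes called on log2(FPKM + 1) with pairing (log2 difference -0.79, SE 0.16, adjusted p = 0.0437). Why the implied length differs between libraries was not tested.

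**Figure D3:**
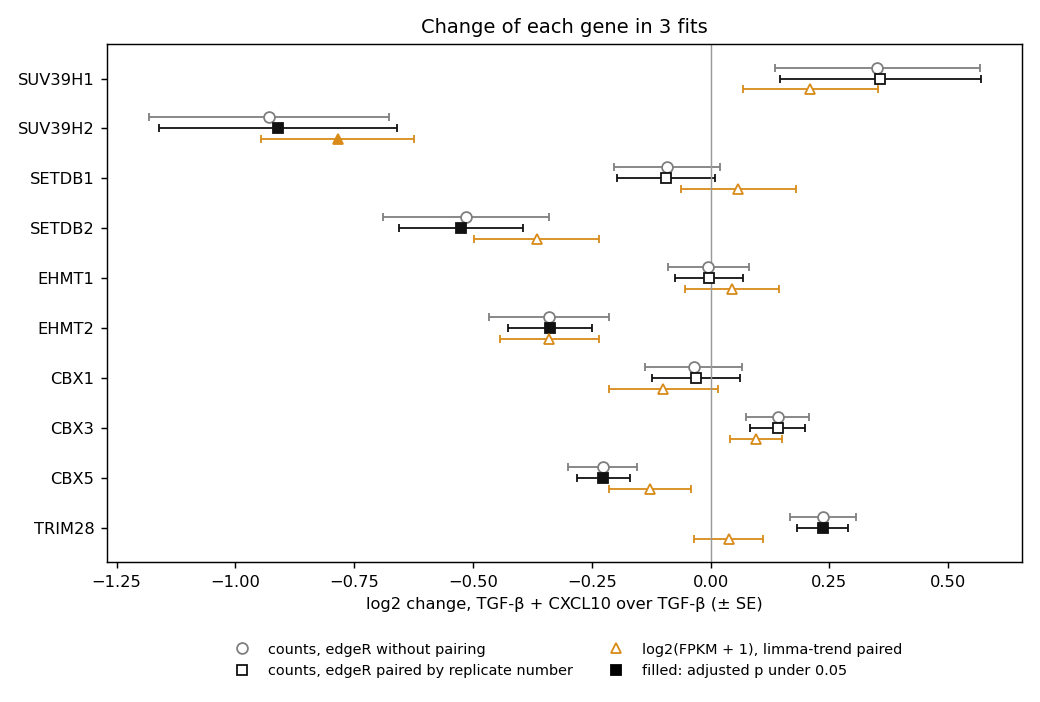
Log2 change of each gene (x axis, TGF-β + CXCL10 over TGF-β, ± SE) in edgeR on counts without pairing, edgeR on counts with pairing, and limma-trend on log2(FPKM + 1) with pairing; filled symbols have an adjusted p under 0.05. SUV39H2 is the gene filled in both paired fits, and TRIM28 lies at 0.24 by counts and 0.04 by FPKM.

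Of the 10 genes, 0 reached an adjusted p of 0.05 in what the authors' deposited table gives. The share of all genes that reached it there was not counted, so this is no result about the 10 genes in particular. The lowest in the authors' deposited table were SUV39H2 (adjusted p = 0.130) and TRIM28 (adjusted p = 0.132), followed by SETDB2 (adjusted p = 0.214), CBX5 (0.223) and EHMT2 (0.290). SUV39H1 stood at an adjusted p of 0.677 in the authors' deposited table.

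Per length, the 10 genes spanned a 29.8-fold range of mean FPKM over the 6 libraries. TRIM28 was highest at 58.4 ± 6.46 FPKM with CXCL10 and 56.9 ± 6.38 FPKM with TGF-β alone (SD, n = 3 each), followed by CBX3 at 42.1 ± 1.27 with CXCL10 and 39.3 ± 0.610 with TGF-β alone. CBX1 came next, at 15.6 to 21.3 FPKM over all libraries, then CBX5 at 10.4 to 14.7 and EHMT1 at 10.5 to 14.5, whose ranges overlapped. EHMT2 at 5.22 to 8.78 FPKM and SETDB1 at 4.70 to 6.46 FPKM also overlapped. At the low end stood SETDB2 at 1.42 to 2.94, SUV39H1 at 1.36 to 2.56 and SUV39H2 at 1.05 to 3.48 FPKM, and these 3 could not be ordered beyond the spread over libraries. Corepressor and readers were thus more abundant as transcripts than the enzymes, with the exception that EHMT1 reached the level of CBX5.

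**Figure D4:**
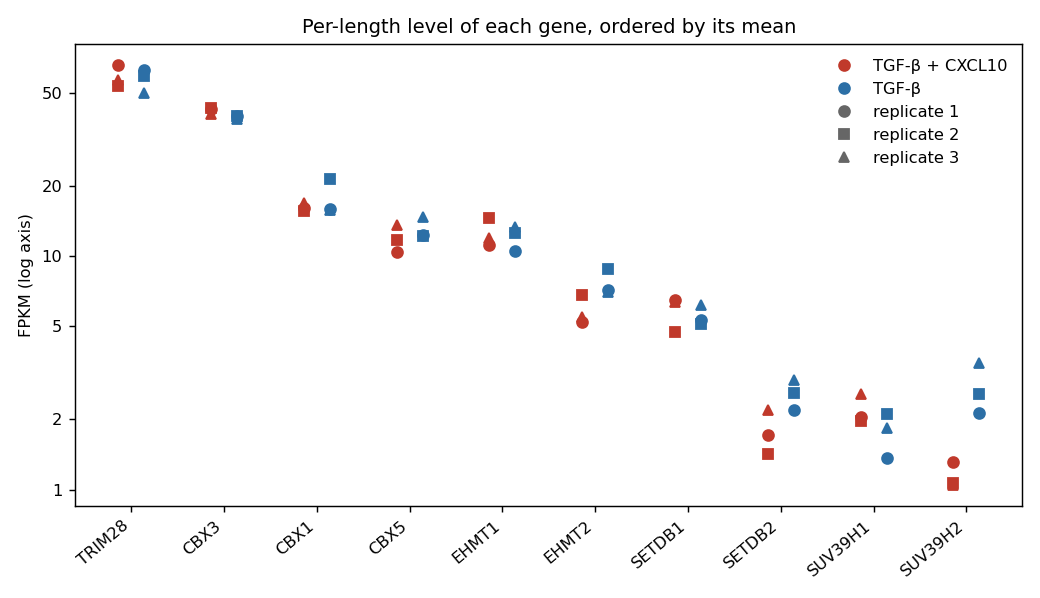
FPKM of each gene in every library on a log axis, with genes ordered by their mean over the 6 libraries; at each gene TGF-β + CXCL10 libraries stand left and TGF-β libraries right. TRIM28 averages 57.7 and CBX3 40.7 FPKM, SUV39H1 1.98 and SUV39H2 1.93 FPKM, and SUV39H2 is the gene whose groups are farthest apart.

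TGF-β replicate 1 was the TGF-β library nearest to the CXCL10 mean for 6 of the 10 genes, against 57.5% of all tested genes. Among the 5 genes called in the paired fit this held for 4, against 93.5% of all 2124 paired calls. The exception was EHMT2, where the nearest TGF-β library was replicate 3.

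Other genes of the pathway were taken from lists written with earlier results of these data known. Of 12 genes listed here as H3K9 demethylases 11 were tested. In the paired fit 1 rose and 2 fell, where 9.71% of all tested genes rose and 8.04% fell. KDM1A (LSD1) rose by 0.18 (log2, SE 0.05, adjusted p = 0.0353), with 105 ± 7.25 CPM with CXCL10 and 92.7 ± 9.13 CPM with TGF-β alone. KDM3A fell by 0.32 on the log2 scale (SE 0.09, adjusted p = 0.0219), and KDM4B fell by 0.23 (SE 0.07, adjusted p = 0.0281), and for all 3 genes the groups overlapped. Without TGF-β replicate 1 the unpaired adjusted p was 0.0331 for KDM1A, 0.0506 for KDM3A and 0.0581 for KDM4B. Without both libraries of replicate 2 the paired adjusted p was 0.193 for KDM1A, 0.0512 for KDM3A and 0.0146 for KDM4B, and without those of replicate 3 all 3 calls were lost (0.183, 0.127 and 0.269). DESeq2 with pairing called none of the 3 (0.167, 0.133 and 0.129), and KDM1A was also lost under library totals (0.0935). KDM4A at -0.20 (adjusted p = 0.0759) and PHF8 at 0.20 (adjusted p = 0.118) had groups that did not overlap but did not pass. The median of the tested demethylases was -0.03, against -0.01 over all genes.

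Of 13 partners of the methyltransferases 1 rose and 1 fell in the paired fit, close to the shares over all genes. L3MBTL2, part of a repressive complex that also holds the EHMT enzymes, rose by 0.57 (SE 0.12, adjusted p = 0.00629), with 25.1 ± 0.871 CPM with CXCL10 and 17.1 ± 3.60 CPM with TGF-β alone (SD, n = 3 each), and its groups did not overlap. DESeq2 without pairing also called it (adjusted p = 0.0385). The unpaired edgeR test without TGF-β replicate 1 gave an adjusted p of 0.0102, which is no separate support. The paired call of L3MBTL2 was lost without both libraries of replicate 2, where the change was 0.38 (adjusted p = 0.0632), and on log2(FPKM + 1) by limma-trend (0.121). ATF7IP, the cofactor that stabilises SETDB1, fell by 0.24 (SE 0.07, adjusted p = 0.0331), with groups that overlapped. The ATF7IP call was lost without both libraries of replicate 1, 2 or 3 (paired adjusted p = 0.0669, 0.165 and 0.0845), with DESeq2 paired (0.170) and, unpaired, was not made without TGF-β replicate 1 (0.0763). CDYL stood at -0.21 (adjusted p = 0.0728), CDYL2 at 0.33 (0.185) and ZNF462 at 0.27 (0.192). The HUSH complex spreads H3K9 methylation over silenced elements with SETDB1 and MORC2. Of its 4 listed genes 0 were called in either fit, with paired log2 differences of -0.06 for MPHOSPH8, -0.05 for TASOR, 0.10 for PPHLN1 and 0.06 for MORC2.

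Among 16 other heterochromatin genes, all tested, the paired fit called 1 higher and 0 lower, no more than the shares over all genes would give. The riser was UHRF1, which reads H3K9 methylation and recruits DNMT1 to replicated DNA. It had 28.1, 23.5 and 21.1 CPM in CXCL10 replicates 1 to 3, and 18.5, 16.8 and 15.3 CPM in TGF-β replicates 1 to 3, with no overlap, and changed by 0.52 (SE 0.10, adjusted p = 0.00272; 0.161 unpaired). DESeq2 without pairing called UHRF1 as well (adjusted p = 0.0394). The paired call of UHRF1 held without both libraries of replicate 1, 2 or 3 in turn (adjusted p = 0.00387, 0.00577 and 0.0151). Its unpaired adjusted p without TGF-β replicate 1, no separate support, was 0.0129. On log2(FPKM + 1) the paired UHRF1 difference of 0.45 did not pass by limma-trend (adjusted p = 0.0710). DNMT1, the maintenance DNA methyltransferase, stood at 0.25 (adjusted p = 0.0560), KMT5B at -0.22 (0.190) and PRDM2 at 0.12 (0.309). Of 8 deacetylases and RB family genes 1 fell: RBL2, the pocket protein p130, by 0.37 on the log2 scale (SE 0.09, adjusted p = 0.00944), with SIRT1 at -0.31 (0.109), HDAC1 at 0.20 (0.0951) and RB1 at 0.15 (0.194). The paired RBL2 call was lost without both libraries of replicate 2 (adjusted p = 0.0626) or 3 (0.0660), with DESeq2 (0.0674) and on log2(FPKM + 1) (0.112). Its unpaired adjusted p without TGF-β replicate 1, no separate support, was 0.0220.

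**Figure D5:**
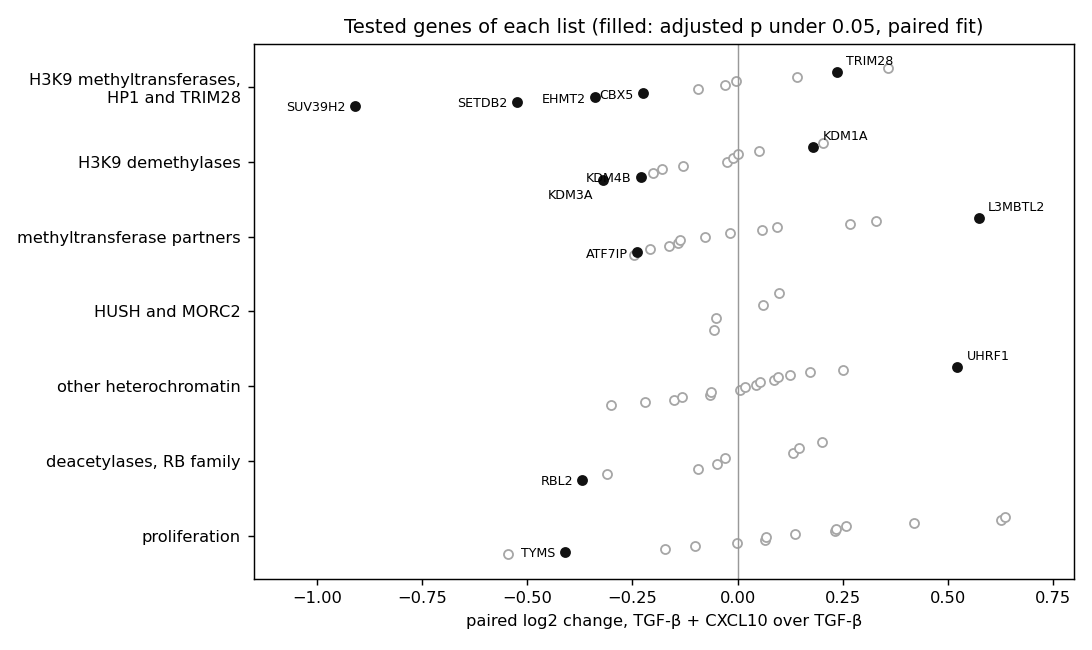
Paired log2 change (x axis, TGF-β + CXCL10 over TGF-β) of every tested gene in 7 lists, each list on a line of its own, with called genes filled and named. Called genes lie on both sides of 0 in the top 3 lists, and SUV39H2 at -0.91 is the farthest from 0 of all genes shown.

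The deposited annotation gives H3K9-specific methyltransferase activity to 10 genes, of which 6 are described above. Of the other 4, ASH1L had 77.4 to 82.5 CPM with CXCL10 and 79.8 to 86.3 CPM with TGF-β alone (paired log2 difference -0.05, adjusted p = 0.579), and SETD5 stood at -0.02 (adjusted p = 0.812). MECOM and PRDM16 were too low to be tested.

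UHRF1 is known to be higher in cycling cells, so proliferation genes were measured beside these lists. Their sum over 16 genes was 133 to 143 CPM with CXCL10 and 134 to 135 CPM with TGF-β alone. PCNA and MCM6 held the largest parts of it, averaging 37.7 and 32 CPM over the 6 libraries. Of 14 tested, 0 rose and 1 fell in the paired fit, TYMS with a log2 change of -0.41 (adjusted p = 0.0386; 0.0332 unpaired without TGF-β replicate 1, and 0.0631 and 0.277 paired without replicate 2 and 3), and the median of those tested was 0.10. Mitotic genes differed in sign: CCNB1 stood at 0.64 (paired adjusted p = 0.127) and BUB1 at -0.55 (0.471), each without overlap between the groups. RRM2 stood at 0.62 (0.328), with groups that overlapped. The part of proliferation in the results was not tested. MKI67 had 1.42 ± 0.254 CPM with CXCL10 and 1.10 ± 0.565 CPM with TGF-β alone, and TOP2A had 3.72 ± 0.324 CPM with CXCL10 and 3.12 ± 0.357 CPM with TGF-β alone (SD, n = 3 each). Neither passed (paired adjusted p = 0.563 and 0.546). In bulk RNA, fewer cells with a transcript and less of it per cell cannot be told apart.

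Over the 6 libraries, the 5 genes with a pattern most like SUV39H1 by Pearson's correlation of log2 CPM, among the 9705 genes that averaged 5 CPM or more, were CYREN (r = 0.983), PLEKHM1 (0.981), KRIT1 (0.972), ANAPC13 (0.969) and KIAA2013 (0.969). For SUV39H2 they were AHCYL2 (0.998), CDC25B (0.997), TKT (0.997), FAM214A (0.995) and PPP1R21 (0.994). At a correlation of at least 0.9 there were 35 genes for SUV39H1 and 684 for SUV39H2. These are descriptions over the 6 libraries of both groups, not tests. The group means were not removed, so a like gap between the groups adds to a correlation.

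The transcripts at the other end of the study's question gave no usable level. CXCL10 itself had 4 counts in CXCL10 replicate 1 and 0 in the other 5 libraries, and its receptor CXCR3 had 0 in all 6, which allows up to 3 counts, or 0.187 to 0.237 CPM. Of the fibrosis genes, ACTA2, the actin that marks myofibroblasts, had 865 ± 180 CPM with CXCL10 and 1151 ± 153 CPM with TGF-β alone, and COL1A1, a chain of type I collagen, had 32397 ± 2137 CPM with CXCL10 and 35706 ± 3125 CPM with TGF-β alone (SD, n = 3 each). Both fell in the paired fit (log2 change -0.43 and -0.14, adjusted p = 8.6e-05 and 0.00835) and not without pairing (0.184 and 0.279), except without TGF-β replicate 1 (0.0176 and 0.0146). COL1A1 was not called in the paired fit without replicate 3 (adjusted p = 0.437). Other genes of the same marker lists, named after their values were seen, did not all move this way. TAGLN, another smooth muscle gene, had 1665 ± 102 CPM with CXCL10 and 1663 ± 56.1 CPM with TGF-β alone (paired adjusted p = 0.998), with a sign that varied with the scaling, and COL1A2, the partner chain of COL1A1, had 6544 ± 262 CPM with CXCL10 and 6696 ± 291 CPM with TGF-β alone (0.586). CNN1 fell (paired log2 change -0.34, adjusted p = 0.00238; 0.0736 unpaired without TGF-β replicate 1), and THY1, a surface protein of fibroblasts, rose (0.43, adjusted p = 0.000868; 0.000915 unpaired without TGF-β replicate 1).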

How the data were processed

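RNA was sequenced from 6 libraries of a fibroblast line, 3 given TGF-β with CXCL10 and 3 given TGF-β alone, grouped by the titles. The authors deposited raw counts and FPKM per gene and library, per the file headers, and for each gene a log2 ratio of group mean FPKM with a p-value and an adjusted p-value. For the aligner, the counter and the authors' test, the sources used here name nothing. All 20323 gene identifiers are human and 0 match mouse genes, although the labels and the submitters' processing notes name mouse, so no sequence or coordinate is printed.

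From the counts, edgeR 4.0.16 in R 4.3.3 (TMM scaling, filterByExpr at its minimums of 10 counts and 15 in total, quasi-likelihood test, Benjamini-Hochberg adjustment over all 11970 genes tested, threshold 0.05) compared the groups, first without and then with the replicate number as a block. CPM are TMM-scaled, and log2 CPM has a prior count of 2. The standard error of a log2 change was its size divided by the square root of the F statistic. Alternatives were DESeq2 1.42.0, library totals in place of TMM, no filter, limma-trend (limma 3.58.1) on log2(FPKM + 1) and with 0.1 in place of 1, and leaving out each library or replicate number; fold changes on that log scale understate those of low genes. The fits were tested on simulated data with a built-in shift per replicate number, which cannot show whether these libraries are paired. Family shares were compared by exact permutation tests. Libraries held 12838106 to 15587409 counts, and intervals cover counting error only.

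The planned fit was the one without pairing, with the replicate block as an alternative. The replicate numbers were taken to pair the libraries because deviations from the group means correlated within each number (0.33, 0.121 and 0.163, each above 0.1). Differently numbered libraries gave -0.223 to 0.0825, with 0.0803 and 0.0825 between replicates 2 and 3, so outside replicate 1 the contrast was slight. Deviations cancel within a group, which ties these correlations to each other. The pairing was chosen from the same counts that the paired fit tests. The labels say nothing of a shared batch or day.

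The 10 genes and all lists were chosen with earlier results of these data known. From each list the text names up to 4 tested genes with the lowest unpaired p, and further genes called in the paired fit. CXCL10, CXCR3, ACTA2, COL1A1, MKI67 and TOP2A were chosen by name. CDH1, KDM4B, ATF7IP, TYMS, TAGLN, CNN1, COL1A2, THY1, VIM, DCN and the 4 other annotated methyltransferases were named after their values were seen. The same holds for S100A4, AQP1, PAX8, CCNB1, BUB1, RRM2, PCNA and MCM6. Where a symbol had more than 1 row (KDM4A, CHD4, PDGFRA and AQP1), the one with the highest mean count was used.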

Additional observations from a re-analysis of the deposited data

How the results depend on the processing

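Most calls depend on the replicate block. With it, edgeR called 1162 genes higher and 962 lower, of which 1 and 4 are among the 10 genes described. DESeq2 called 158 higher and 156 lower without the block, and 686 higher (1 of the 10) and 455 lower with it. Library totals with the block gave 877 higher (1 of the 10) and 1359 lower (4 of the 10), so the balance of directions turned with the scaling, which moved the median of all genes by -0.04. Limma-trend on log2(FPKM + 1) with the block gave 337 higher and 352 lower (1 of the 10). Leaving out libraries or replicate numbers gave 0 to 1533 genes higher (0 to 1 of the 10) and 0 to 1313 lower (0 to 4 of the 10). Paired, the count without replicate 3 was 539 higher and 365 lower, and without replicate 2 it was 680 higher and 561 lower. Unpaired, it was 1302 higher and 1046 lower without TGF-β replicate 1. Without any other single library the unpaired count was 0 in either direction.

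Of 792 log2 changes of 44 named genes over the alternatives, 760 kept their sign and 32 did not, all of them small and uncalled. SETDB1 turned to 0.0584 on log2(FPKM + 1), with or without the block, and 0.0661 on log2(FPKM + 0.1). EHMT1 turned to 0.0059 without the filter, to 0.0453 on log2(FPKM + 1), with or without the block, and to 0.0485 on log2(FPKM + 0.1). TAGLN turned to -0.0412 under library totals (-0.0430 with the block) and to -0.0408 on the FPKM scales. Leave-outs spread TAGLN over -0.0561 to 0.0791, COL1A2 over -0.0578 to 0.0112, EHMT1 over -0.0549 to 0.0359, CBX1 over -0.11 to 0.10, PPHLN1 over -0.0191 to 0.17, MORC2 over -0.0160 to 0.15, TASOR over -0.10 to 0.0104 and MPHOSPH8 over -0.17 to 0.0160. The CBX1 share of the HP1 total differed by 0.328 points by counts and by -3.14 to 0.0693 points in leave-outs. The causes were not tested. Of the 10 genes, SUV39H1, at 53 to 95 counts per library, and SUV39H2, at 33 to 91, had the fewest counts, and MKI67, at 6 to 22, had fewer still.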

Other observations

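Other fibroblast genes also moved in the paired edgeR fit, chosen here after their values were seen. VIM, the intermediate filament of mesenchymal cells, had 3567, 3217 and 3154 CPM with CXCL10 and 2944, 2329 and 2401 CPM with TGF-β alone, and rose by 0.38 (log2, SE 0.04, adjusted p = 6.98e-05; 0.000523 unpaired without TGF-β replicate 1). DCN, a small proteoglycan of the matrix, had 306, 300 and 307 CPM with CXCL10 and 338, 365 and 384 CPM with TGF-β alone, and fell by 0.25 (SE 0.05, adjusted p = 0.00411; 0.00366 unpaired without TGF-β replicate 1, and 0.114 paired without replicate 3). For both genes the groups did not overlap. KDM4D, an H3K9 demethylase best known from testis, was too low to be tested, at 11, 7 and 4 counts with CXCL10 and 4, 2 and 1 counts with TGF-β alone.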
